A study of Mus musculus with 6 samples.

Results

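Of the 85078 autosomal regions formed by merging the peaks of methylated DNA found in blood stem cells (HSC), in common myeloid progenitors (CMP) and in erythroblasts (ERY, nucleated red cell precursors), 1440 held a CMP peak and no peak of the other cell types. These regions are called CMP-alone regions here. They were chosen by joining overlapping or touching peaks on chromosomes 1 to 19 and keeping the regions with a CMP peak but neither an HSC nor an ERY peak. The presence of peaks in the 3 lists therefore defines them and is not a result. The label given to the set, regions methylated in myeloid progenitors only, goes further than the lists allow. They hold no read counts, so a region outside a list is one where no peak was called and not one shown to lack methylation.

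The study mapped DNA methylation along blood cell differentiation with MBD2 pulldown, in which a methyl-CpG-binding protein retains methylated DNA fragments that are then sequenced. Such capture favours fragments with many methylated CpG sites. Each cell type had 1 MBD2-enriched library, and the 3 libraries of the unbound supernatant are not analysed here. Per the labels, all cells were from female C57BL/6 mice with no genetic change or drug treatment, HSC and CMP came from adult bone marrow, and how the erythroblasts were obtained is not stated. HSC were lineage-depleted cells carrying both Sca-1 and c-kit, and CMP were lineage-depleted cells with c-kit but not Sca-1. As background, the first gate also takes in multipotent progenitors, and the second also takes in the granulocyte-macrophage and megakaryocyte-erythroid progenitors that descend from CMP. Peak lists carry no marker gene expression, so the identity of the sorted cells could not be checked against markers. A single library per cell type gives no replicate spread, so cell types were compared without a test. Intervals are 95% exact binomial (Clopper-Pearson) intervals, or order-statistic intervals for medians, and cover counting error only.

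In mammals, methyl groups sit mainly on the cytosine of CpG dinucleotides. Dnmt3a and Dnmt3b place them on unmethylated DNA, and Dnmt1 copies them to the new strand after replication. A region can thus gain methylation during differentiation by new placement and lose it when copying fails or when Tet enzymes oxidise the mark. The erythroid lineage is known for a broad loss of methylation as erythroblasts divide, while myeloid progenitors stand earlier on that path. A CMP-alone region has, by its choice, no counterpart in either the stem cell or the erythroblast list.

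CMP-alone regions were a small part of the CMP methylome. They made up 2.99% of the 48228 regions with a CMP peak (interval 2.84 to 3.14%) and 1.69% of all merged regions (1.61 to 1.78%), and covered 933.7 kb. Each consisted of a single CMP peak. In the same regions with a CMP peak, 3.55% (1714) lacked an HSC peak and 48.8% (23558) lacked an ERY peak. Of the 26718 regions with an ERY peak 1000 had a peak in ERY alone (3.74%, 3.52 to 3.98%), while 34802 of the 82364 regions with an HSC peak (42.3%, 41.9 to 42.6%) had a peak in HSC alone. The lists differed in length, with 83430 HSC, 49054 CMP and 27266 ERY peaks on the autosomes, and a long list leaves fewer peaks of the others alone by construction.

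Membership was seldom a matter of a few bases. A CMP peak with any base shared with the other lists had a median of 94.4% of its length covered by HSC or ERY peaks. Of the 49054 CMP peaks, 28840 were covered over at least 90% of their length, 18359 over 50 to 90% and 408 over 10 to 50%. Only 7 were covered by more than 0 but less than 10%, against the 1440 with no shared base. The 3 regions that came closest to qualifying lay on chromosome 10 at 80109532 to 80110982, chromosome 15 at 89004286 to 89005690 and chromosome 5 at 112378304 to 112379609. Their CMP peaks shared 3, 4 and 17 bp with an HSC peak.

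On the inner side of the threshold, the member with the smallest gap lay on chromosome 5 at 23989504 to 23990108 (605 bp wide). It ended 2 bp from an ERY peak, 136 bp from an HSC peak and 13 bp from another CMP peak. The next lay on chromosome 10 at 94007476 to 94008181 (706 bp), 18 bp from an HSC peak and 32.9 kb from the nearest ERY peak. The third lay on chromosome 3 at 97552677 to 97553272 (596 bp), 19 bp from an HSC peak and 1129 bp from an ERY peak. Such close neighbours were few. A gap of at most 50 bp to an HSC or ERY peak was found for 7 members and one of at most 200 bp for 44.

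CMP-alone regions were narrow. Their median width was 641 bp (interval 632 to 651, quartiles 534 and 769), against 819 bp for all CMP peaks. Peaks found in 1 cell type alone were narrow in the other lists too, with medians of 683.5 bp in ERY alone (789 bp for all ERY peaks) and 677 bp in HSC alone (748 bp for all HSC peaks). CMP peaks had a median of 757 bp (754 to 760) in regions shared with HSC alone and 890 bp (887 to 893) in regions with peaks in all 3 cell types. The CMP peaks of the 274 regions with CMP and ERY but no HSC peak had a median of 659 bp (623 to 673), close to that of the CMP-alone regions. Only 238 CMP-alone regions (16.5%, 14.6 to 18.5%) were wider than the median CMP peak, and 20 (1.39%, 0.85 to 2.14%) reached 1000 bp, as did 19.4% of all CMP peaks.

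The share of CMP peaks found in CMP alone fell at each step from narrow to wide. Among the narrowest 10% of CMP peaks (211 to 556 bp), 441 of 4909 were CMP-alone (8.98%, 8.20 to 9.82%). In the fifth decile (763 to 819 bp) the share was 2.91% (2.46 to 3.41%), and in the eighth (924 to 994 bp) 0.572% (0.381 to 0.826%). Among the widest 10% (1175 bp and above) it was 0.143% (0.058 to 0.295%), that is 7 of 4889 peaks. The narrowest 2 deciles together held 716 of the 1440 CMP-alone regions. ERY peaks found in ERY alone started from a like share and declined less, from 8.29% (7.29 to 9.39%) in the narrowest to 0.844% (0.536 to 1.26%) in the widest decile. A wide peak meets another peak more easily, and no peak height is given, so the part of width in these shares was not tested.

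**Figure D1:**
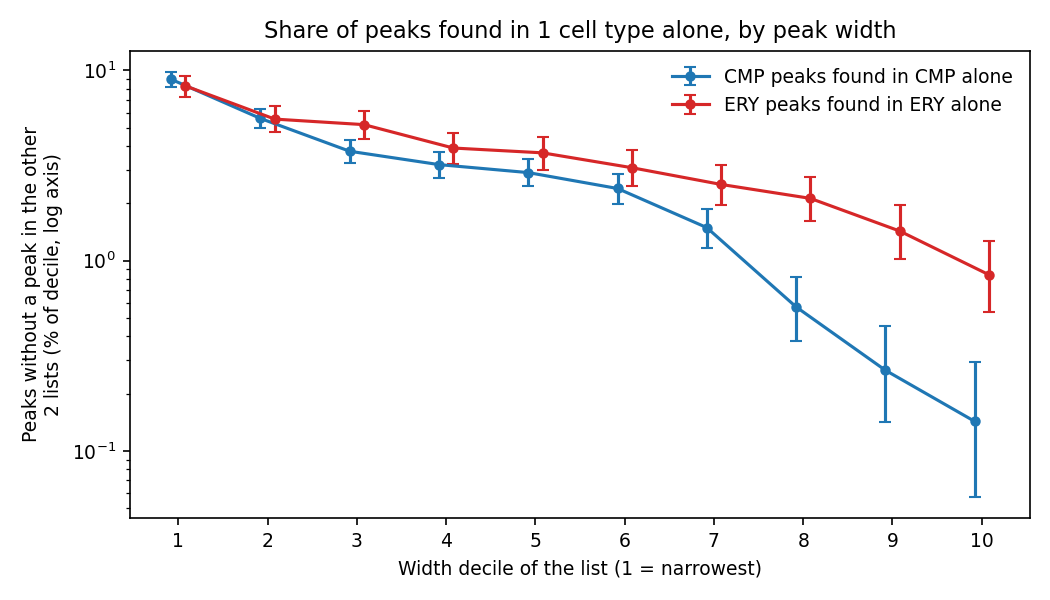
Percentage of peaks found in 1 cell type alone (log axis) by width decile of the list, for CMP (blue) and ERY (red) peaks on the autosomes, with points for the share and bars for the 95% exact binomial interval. The CMP share fell from 8.98% to 0.143% from the narrowest to the widest decile and the ERY share from 8.29% to 0.844%.

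The widest member lay on chromosome 19 at 6541475 to 6542827 (1353 bp), with the nearest HSC peak 6.37 kb and the nearest ERY peak 24.0 kb away. The second, on chromosome 15 at 27495833 to 27497171 (1339 bp), lay 3001 bp from an HSC and 2791 bp from an ERY peak. The third, on chromosome 4 at 151499609 to 151500926 (1318 bp), had an HSC peak 0.96 kb away and an ERY peak 10.9 kb away. These 3 had no HSC or ERY peak within 500 bp. The fourth, on chromosome 8 at 72856969 to 72858249 (1281 bp), lay 284 bp from an HSC and 347 bp from an ERY peak. The fifth, on chromosome 18 at 81594998 to 81596257 (1260 bp), lay 159 bp from an HSC and 127 bp from an ERY peak. Both of the latter also had another CMP peak close by, 182 and 125 bp away.

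A CMP peak without an HSC peak was seldom accompanied by an ERY peak. Of the 1714 regions with a CMP and no HSC peak, 274 (16.0%, 14.3 to 17.8%) had an ERY peak, and the other 1440 are the CMP-alone regions. Where an HSC peak was present, 24396 of 46514 regions with a CMP peak (52.4%, 52.0 to 52.9%) had an ERY peak. The rule draws on the same HSC and ERY peaks, so these shares are given as a description without a test. Split by width, the share without an HSC peak was the lower in each class, and the part of width was not tested. In the narrowest 20% of CMP peaks (211 to 640 bp), 15.0% (12.6 to 17.6%) of 842 peaks without HSC and 34.4% (33.4 to 35.4%) of 8982 peaks with HSC had an ERY peak. In the fourth width class (871 to 994 bp) the shares were 15.1% (9.22 to 22.8%) of 119 and 60.6% (59.7 to 61.6%) of 9664. Among CMP peaks with an HSC peak, those with an ERY peak became more frequent with width. Among those without an HSC peak the share lay between 15.0 and 23.1% in the 5 width classes, with overlapping intervals and only 26 peaks in the widest class.

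**Figure D2:**
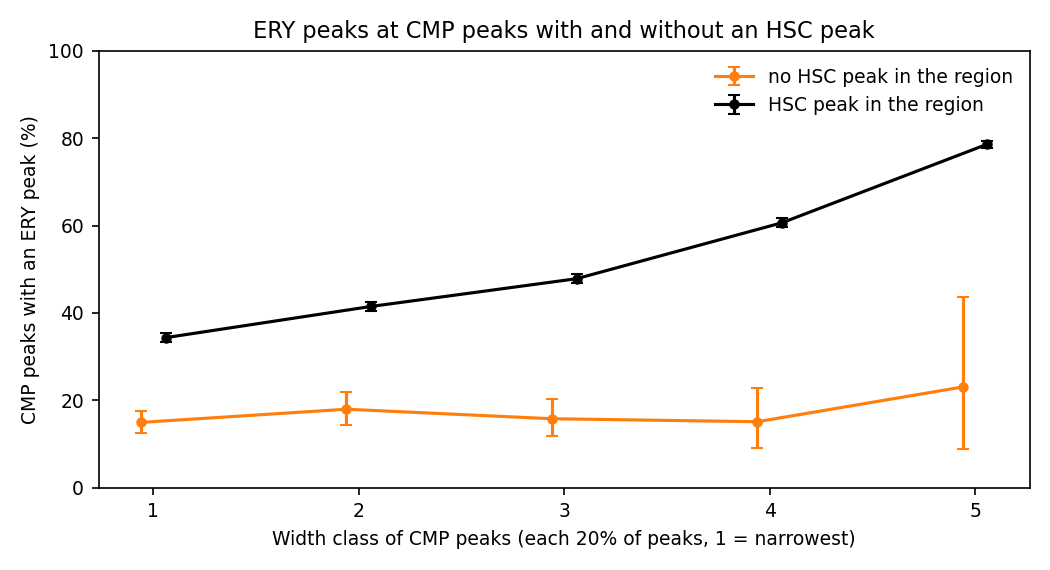
Percentage of CMP peaks whose merged region held an ERY peak, by width class of the CMP list (each 20% of the peaks), for regions with (black) and without (orange) an HSC peak, with bars for the 95% exact binomial interval. With an HSC peak the share went from 34.4% to 78.6% from the narrowest to the widest class, and without one it lay between 15.0% and 23.1%.

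Most CMP-alone regions lay some kilobases from the nearest peak of another cell type. The median gap to an HSC peak was 6.39 kb (quartiles 2.03 and 18.6) and the median gap to an ERY peak 24.6 kb (7.74 and 66.1). An HSC peak was the nearer of these for 1250 members (86.8%) and an ERY peak for 188. The HSC list is the longer, which shortens such gaps by construction. An HSC peak lay within 5 kb of 631 members (43.8%, 41.2 to 46.4%) and within 500 bp of 102 (7.08%, 5.81 to 8.53%). An ERY peak lay within 5 kb of 254 (17.6%, 15.7 to 19.7%). The 22118 regions with HSC and CMP peaks had an ERY peak within 5 kb in 21.1% of cases (20.6 to 21.7%). In 793 members (55.1%, 52.5 to 57.7%) no other peak of any list lay within 5 kb, against 50.4% (49.7 to 51.0%) of regions shared by HSC and CMP and 43.4% (42.8 to 44.0%) of regions with all 3. Regions with a peak in ERY alone had no other region within 5 kb in 57.7% of cases (54.6 to 60.8%). For regions with CMP and ERY but no HSC peak the share was 49.6% (43.6 to 55.7%).

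**Figure D3:**
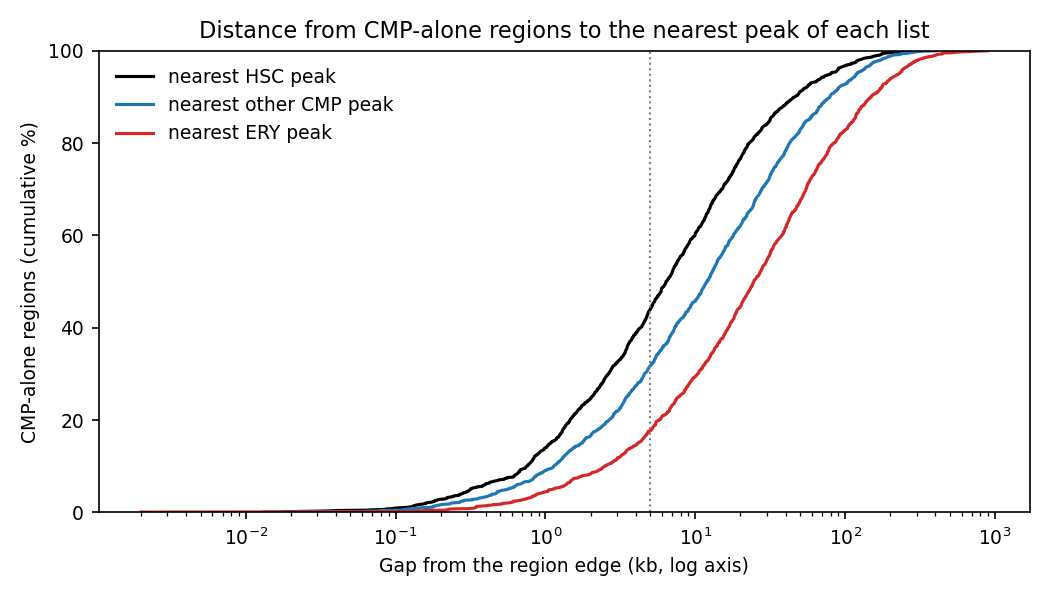
Cumulative percentage of the 1440 CMP-alone regions by the gap from the region's edge to the nearest HSC (black), other CMP (blue) and ERY (red) peak, in kb on a log axis, with a dotted line at 5 kb. At 5 kb the curves stood at 43.8% for HSC, 31.7% for other CMP and 17.6% for ERY peaks.

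Taken over all distances, the HSC regions next to CMP-alone regions were kept in CMP about as often as HSC regions in general. The nearest region with an HSC peak also held a CMP peak for 829 of 1440 members (57.6%, 55.0 to 60.1%) and lacked one for the other 611. Over all 82364 regions with an HSC peak, 56.5% held a CMP peak. For the 107 members within 500 bp of such a region, 69 of the neighbours held a CMP peak (64.5%, 54.6 to 73.5%). The share was 58.1% (53.7 to 62.3%) for the 527 members from 500 bp to 5 kb away, 53.8% (49.999 to 57.6%) for the 678 from 5 to 50 kb away and 69.5% (60.8 to 77.4%) for the 128 beyond 50 kb. It thus had no steady order with distance. The interval beyond 50 kb lay above the 56.5% of all HSC regions, but it is picked from several distance classes without allowance for that. Members close together can also share the same nearest HSC region. For regions with HSC and CMP peaks, 56.6% (54.0 to 59.2%) of the nearest other HSC regions beyond 50 kb held a CMP peak. In the 69 nearest cases the CMP-alone peak stood beside an HSC peak that CMP also had. In the other 38 it stood beside an HSC peak that CMP lacked. The same neighbours held an ERY peak in 429 of 1440 cases (29.8%, 27.4 to 32.2%), against 30.9% of all HSC regions.

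The wider surroundings gave a like picture. Within 50 kb on either side of their centres, CMP-alone regions had a median of 4 other regions with an HSC peak (quartiles 2 and 8), 2 with a CMP peak and 1 with an ERY peak. The medians were 5, 3 and 1 around regions with HSC and CMP peaks, and 6, 3 and 2 around regions with all 3. Around regions with a peak in ERY alone they were 4, 2 and 1, as around members. Of the 7958 HSC regions counted around members, where one region may count for several members, 57.2% were kept in CMP and 31.8% in ERY. Around regions with HSC and CMP peaks the shares were 57.7% and 31.9%. No HSC region lay in this window for 131 members (9.10%), against 6.66% of regions with HSC and CMP peaks. The share was 10.6% for regions in ERY alone and 16.4% for those with CMP and ERY but no HSC peak.

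**Figure D4:**
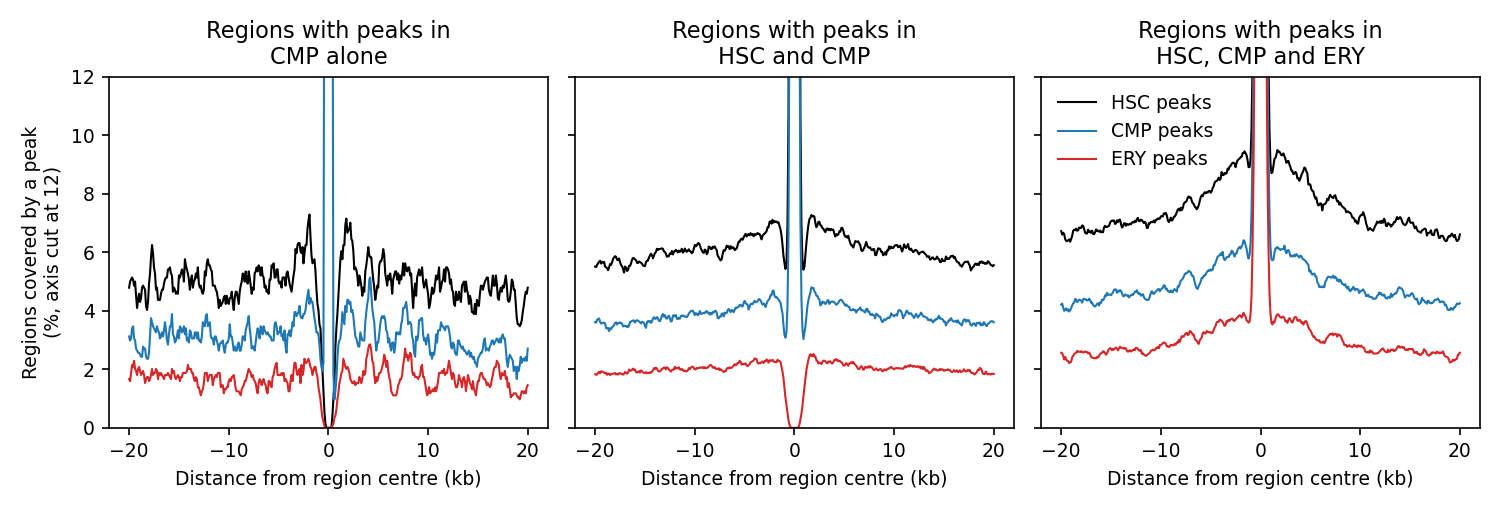
Percentage of regions covered by an HSC (black), CMP (blue) or ERY (red) peak at each distance from the region's centre, in steps of 100 bp out to 20 kb, for CMP-alone regions (left), regions with HSC and CMP peaks (middle) and regions with peaks in all 3 (right). The vertical axis is cut at 12%, the values at the centre follow from the class, and from 10 to 20 kb HSC peaks covered on average 4.77%, 5.81% and 6.85% of positions in the 3 panels.

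The flanks of CMP-alone regions were slightly poorer in peaks than those of shared regions. From 1 to 5 kb away, HSC peaks covered on average 5.58% of positions around members, 6.73% around regions with HSC and CMP peaks and 8.88% around regions with all 3. For CMP peaks the averages were 3.64%, 4.29% and 5.91%. Distances run from the region's centre, and the region's own peaks are not left out. No member was wider than 1353 bp, while CMP peaks reached 9933 bp in the HSC and CMP class and 19960 bp in the class with all 3. Part of the coverage around shared regions can thus be their own. Position and width went together, so members were also set beside equally narrow peaks of the HSC and CMP class. In the narrowest 20% of CMP peaks, another HSC region lay within 5 kb of 40.1% of 716 members (36.5 to 43.8%) and of 41.3% of 5809 regions with HSC and CMP (40.0 to 42.5%). In the next 20% (641 to 762 bp) the shares were 45.0% (39.7 to 50.5%) and 47.0% (45.6 to 48.3%). The intervals overlapped in each of the 5 width classes, so a difference in this measure was not detectable beyond counting error at equal width. Around the narrowest members the mean number of HSC regions within 50 kb was 4.67. It was 5.09 for regions with HSC and CMP whose CMP peaks were equally narrow. The HSC peak can make such a merged region wider than its CMP peak.

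Members close to HSC peaks were slightly wider than distant ones. The 102 members within 500 bp of an HSC peak had a median width of 660.5 bp (interval 611 to 715), and the 529 members from 500 bp to 5 kb away 662 bp (641 to 684). The 681 members 5 to 50 kb away had a median of 636 bp (623 to 648), and the 128 members beyond 50 kb 606.5 bp (546 to 626). The last interval does not overlap that of the members 500 bp to 5 kb away. It does overlap those of the members within 500 bp and 5 to 50 kb away, and the differences in width were not tested. Regions with HSC and CMP peaks showed a like relation. Another HSC region lay within 5 kb of 41.3% of them in the narrowest width class of CMP peaks and 61.5% in the widest.

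A few members were far from any HSC or ERY peak, and 44 (3.06%) had none within 100 kb. The most isolated lay on chromosome 2 at 176574733 to 176575099 (367 bp), 294.9 kb from an HSC, 303.5 kb from an ERY and 294.9 kb from another CMP peak. The next were a pair on chromosome 4, one at 28339294 to 28339726 (433 bp) and the other at 28340054 to 28340406 (353 bp). They lay 327 bp apart and 249.1 and 248.5 kb from an HSC peak, with ERY peaks 334.1 and 333.5 kb away. The pair is thus made of 2 small CMP peaks in a stretch without HSC or ERY peaks. The fourth lay on chromosome 10 at 103291491 to 103292137 (647 bp), 247.5 kb from an HSC peak and 261.2 kb from an ERY peak. The fifth, on chromosome 12 at 65337181 to 65337912 (732 bp), lay 234.5 kb from an HSC and 387.4 kb from an ERY peak. Repeats and ease of read mapping at these places were not examined.

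CMP-alone regions stood next to one another about as often as their share of all regions, and grouping was not tested. The next merged region on either side was another member in 54 of 2879 cases (1.88%, 1.41 to 2.44%), and members made up 1.69% of all regions. The large classes of neighbours followed the whole set. HSC alone made up 40.3% (40.9% of all regions), HSC and CMP 27.5% (26.0%), and all 3 together 27.1% (28.7%). Regions with CMP and ERY but no HSC peak made up 18 of the 2879 neighbours (0.625%, 0.371 to 0.986%), against 0.322% of all regions. ERY-alone regions had another ERY-alone region as neighbour in 96 of 1999 cases (4.80%, 3.91 to 5.83%), against 1.18% of all regions. These shares are descriptions of the lists, and their differences were not tested. The median gap from a member to the nearest other member was 499.9 kb (quartiles 186.2 and 1066), and 22 members formed 11 pairs less than 5 kb apart.

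The closest pair was the one on chromosome 4 described above. The second lay on chromosome 9, one at 99973870 to 99974428 (559 bp) and the other at 99974866 to 99975217 (352 bp), with 437 bp between them and HSC peaks 57335 and 56546 bp away. The third lay on chromosome 19, one at 6088722 to 6089313 (592 bp) and the other at 6089932 to 6090531 (600 bp), 618 bp apart and 7245 and 8455 bp from an HSC peak. In these 3 pairs no HSC peak lay within 5 kb of either member. In 5 of the other 8 pairs at least one member had an HSC peak within 5 kb.

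In windows of 1 Mb, 1450 of 2482 held no member, 722 held 1, 238 held 2 and 72 held more. The fullest windows had 6 members each. The first was on chromosome 11 from 96000001 to 97000000, where the members made up 6 of 54 regions with a CMP peak (11.1%, 4.19 to 22.6%) beside 85 regions with an HSC and 19 with an ERY peak. Its members were 516 to 783 bp wide, lay between 96166158 and 96725123, and each had an HSC peak 1361 to 6263 bp away. The other was on chromosome 19 from 56000001 to 57000000, with 6 of 61 (9.84%, 3.70 to 20.2%), and its members lay 1379 to 9646 bp from an HSC peak. A further 3 windows tied at 5 members. They lay on chromosome 4 from 148000001 to 149000000 with 5 of 89 regions with a CMP peak (5.62%, 1.85 to 12.6%), on chromosome 7 from 29000001 to 30000000 with 5 of 77 (6.49%, 2.14 to 14.5%) and on chromosome 8 from 125000001 to 126000000 with 5 of 93 (5.38%, 1.77 to 12.1%). The 5 windows were picked for their counts, and their intervals do not allow for that choice. They held 85 to 146 regions with an HSC peak, against a mean of 33.2 per window, and 54 to 93 with a CMP peak, against a mean of 19.4.

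By chromosome, members made up between 2.39% of the regions with a CMP peak on chromosome 8 (73 of 3057, interval 1.88 to 2.99%) and 3.77% on chromosome 1 (114 of 3024, 3.12 to 4.51%). The interval of 18 of the 19 autosomes held the pooled share of 2.99%, the exception being chromosome 1. The intervals were not adjusted for the number of autosomes, so 1 miss among 19 is not read as an excess on chromosome 1. The standard deviation over the autosomes was 0.323 percentage points. In number per Mb, members ranged from 0.439 on chromosome 3 to 0.848 on chromosome 19, where all regions with a CMP peak numbered 15.4 and 24.7 per Mb. The densities did not always go together, since chromosome 1 had 0.578 members at 15.3 such regions per Mb and chromosome 8 had 0.554 at 23.2.

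**Figure D5:**
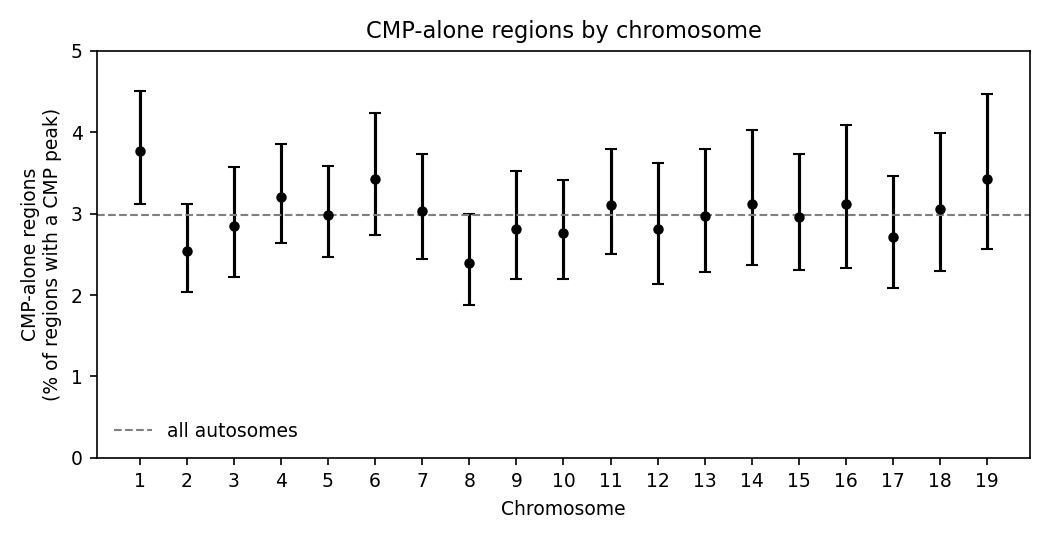
CMP-alone regions as a percentage of all regions with a CMP peak on each autosome, with points for the share and bars for the 95% exact binomial interval, and a dashed line at the pooled share of 2.99%. The shares ran from 2.39% on chromosome 8 to 3.77% on chromosome 1, and the chromosome 1 interval alone lay off the line.

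Members were denser towards the distal chromosome ends, as were most other classes of regions. The last 10 Mb of each autosome, measured from the last peak, held 175 members (12.2%, 10.5 to 14.0%), and these stretches make up 7.69% of the length spanned. Per Mb this was 0.921 at the ends and 0.554 elsewhere, a ratio of 1.66. For all regions with a CMP peak the distal share was 13.9% (13.6 to 14.2%) and the ratio 1.93, and for regions with HSC and CMP peaks 13.5% (13.0 to 13.9%) and 1.87. ERY-alone regions had 9.50% (7.75 to 11.5%) in the same stretches, a ratio of 1.26. The 274 regions with CMP and ERY but no HSC peak had 8.39% (5.40 to 12.3%), a ratio of 1.10, and their interval holds the share of length. In the narrowest 20% of CMP peaks, 10.9% of members (8.71 to 13.4%) and 10.9% of regions with HSC and CMP (10.1 to 11.7%) were distal.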

How the data were processed

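For each MBD2-enriched library the authors deposited a list of peaks, with chromosome, start and end on mm9 (the submitters' processing notes) and no height, score or p-value. Per the labels' protocols, 36 bp single-end reads were placed uniquely. The file headers show an export from a genome browser. No source used here names the aligner, peak caller, threshold, control, pooling or depth. Coordinates are printed 1-based. The gene and sequence tables at hand are for GRCm38, so genes, promoters, CpG content, ETS motifs and sequences were not used.

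Peaks were merged and classed in Python 3.11.15 with numpy 2.4.6, pandas 2.3.3 and scipy 1.17.1. bedtools 2.31.1 gave the same 1440 members. In a simulation with 200 planted CMP-alone peaks, 200 were found. The planted peaks were placed clear of all other peaks, so this checks the code and not the sensitivity of the lists. Gaps are bases between edges. Regions were named by rule: the 5 widest, the 5 farthest from HSC or ERY peaks, the 3 just inside and outside the threshold and the 3 fullest windows of 1 Mb, with the windows tied for the third place added. Close pairs were picked after their values were seen, as were the comparisons by width and of neighbours. The members were chosen with earlier results of these data known.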

Additional observations from a re-analysis of the deposited data

How the results depend on the processing

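Merging peaks within 500 bp left 1330 members, and X and Y brought the number to 1503, of which 1 is on Y although the mice are labelled female. Leaving out each autosome in turn gave 1326 to 1389 members, a share of 2.93 to 3.03%, a median width of 638 to 645 bp and 43.2 to 45.0% within 5 kb of an HSC peak. Counting each CMP peak with under 50% of its length covered gave 1855 of 49054 CMP peaks, a share of 3.78%. This share is of peaks and not of regions, and on that basis the 1440 members made up 2.94%. The wider 50% of CMP peaks, set against the full HSC and ERY lists, gave 239 and 0.985%. Fewer peaks enter, and only 238 of the 1440 members were wider than the median CMP peak. The lower number and share thus restate the widths given above, and why narrow peaks were more often alone was not tested. Within 1 kb and 10 kb, an HSC peak lay near 14.0% and 60.4% of members and an ERY peak near 4.44% and 29.4%, as a larger distance must give more. No paired analysis was possible because each cell type has 1 library. Alternatives that need an mm9 genome or annotation were not run. With no read depth or peak height, how far the sensitivity of the HSC and ERY lists sets the number of members was not tested.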

Other observations

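On chromosome X, outside the autosomes described above, 62 of 1566 regions with a CMP peak had a peak in CMP alone (3.96%, interval 3.05 to 5.05%), against 2.99% (2.84 to 3.14%) on the autosomes. Their median width was 558 bp (quartiles 408.75 and 687), and their median gap to an HSC peak was 20.6 kb, with 9 of 62 within 5 kb. Of the 70 X regions with a CMP and no HSC peak, 8 had an ERY peak. The CMP list also places 1 CMP-alone region among 3 regions with a CMP peak on chromosome Y. Peaks on Y go against the label of female mice, so these are not read as methylated Y DNA, and their source was not tested.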
